A study of Rattus norvegicus with 12 samples.

Results

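Elastin (Eln) and 7 genes whose products assemble elastic fibres, Fbn1, Fbn2, Ltbp2, Fbln5, Efemp1, Efemp2 and Loxl1, were followed in the developing rat lung. The genes were chosen by name, with earlier results of these data known, and the features of the array were matched to them through RefSeq accessions. All 8 were found, each with 1 feature, among 9621 genes with a symbol and 26208 features in all. The series holds 12 one-colour arrays of whole lung from Sprague-Dawley rat pups killed 4, 10 or 21 days after birth. Intrauterine growth restriction (IUGR) had been induced with a low protein diet, and the controls are labelled only as such. At each age there were 2 IUGR and 2 control arrays, each of RNA pooled from 2 or 3 pups, out of 14 IUGR and 15 control pups. Which litters went into a pool is not stated, so p-values measure only the spread between these pools.

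Elastic fibres have a core of cross-linked elastin, secreted as the soluble monomer tropoelastin, on a scaffold of microfibrils built from fibrillins. Fibulins bring tropoelastin to the microfibrils and to the lysyl oxidases that cross-link it. In the rodent lung most alveoli form after birth, when new septa rise from the walls of the saccules, and elastin made by myofibroblasts is laid down at the tips of these septa.

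Values are log2 of the deposited intensity, and differences are log2 differences with their standard error. A change is called where limma's p-value, adjusted over all features by the Benjamini-Hochberg method, is below 0.05. Days 4 and 10, with 8 arrays, shared 1 scale, with median intensities of 411.2 to 418.4 and lowest intensities of 113.1 to 121.7. The lowest of their 64 member values was an intensity of 957, for Ltbp2. Day 21 was on another scale (lowest intensities of 5.65 to 6.02 on 3 arrays) and was read apart, on the 10097 features with NM accessions. Control day 21 replicate 2 had a correlation of 0.09 with the average of the earlier arrays over these features, against 0.946 to 0.948 for the other 3 day 21 arrays, and was left out. Lung markers were present on every array used: the summed intensity of the 8 measured lung markers was 107957 to 126828 at days 4 and 10 and 153360 to 157259 at day 21. Cartilage (5 markers, summed intensity 1159 to 2680) and mesothelium (2 markers, 965 to 1283) were low on the 8 arrays of days 4 and 10. Markers of heart muscle and brown fat were highest on 1 IUGR array at each of days 4 and 10, and at day 10 both IUGR arrays exceeded both controls. The 5 heart markers summed to 70487 on IUGR day 4 replicate 2 and to 35511 on IUGR day 10 replicate 2, against 24448 to 33313 on the other arrays of day 4. At day 10 they summed to 12786 on IUGR replicate 1 and to 7808 and 7687 in controls. The 4 brown fat markers summed to 19411 and 29084 on the same pair of arrays, against 3439 to 3844 on the others of day 4. At day 10 they summed to 7593 on IUGR replicate 1 and to 1893 and 2940 in controls. In whole lung, fewer cells of a type and less RNA per cell cannot be told apart.

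The promoter regions of 7 of the 8 genes are in the RefSeq promoter table of build GRCr8. That of Eln is not, so the counts below do not cover the elastin promoter. The 250 bases before the start site were searched on both strands for CAGAC, the core of the element bound by SMAD proteins, the transducers of TGF-beta signals. Common promoter boxes were searched as well. CAGAC was found in 6 of the 7 windows and in 42.9% of the 33469 windows of the whole table. The GC box, spelled GGGCGG, was found in 4 windows and in 30.5% of the table. The CCAAT box was found in 1 window and in 34% of the table. The TATA box, spelled TATAAA, was found in 0 windows and in 12.9% of the table. None of the matches overlapped a match to another of the motifs. The windows of 3 genes, Fbn1 and Ltbp2 among them, lie inside the annotated gene, because the start site used by the table is not the outermost start. Below are those bases of the Efemp1 and Loxl1 windows that lie outside the annotated gene, shown because both genes were higher on every day 10 array than on every day 4 array. Capitals mark CAGAC or its reverse complement. They are chr14:106811614-106811768 on the plus strand and chr8:67612225-67612474 on the minus strand of GRCr8, read 5′ to 3′ along the gene.
Efemp1: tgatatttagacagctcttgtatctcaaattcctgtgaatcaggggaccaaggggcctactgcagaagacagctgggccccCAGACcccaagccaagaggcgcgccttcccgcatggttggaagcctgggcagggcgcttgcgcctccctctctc
Loxl1: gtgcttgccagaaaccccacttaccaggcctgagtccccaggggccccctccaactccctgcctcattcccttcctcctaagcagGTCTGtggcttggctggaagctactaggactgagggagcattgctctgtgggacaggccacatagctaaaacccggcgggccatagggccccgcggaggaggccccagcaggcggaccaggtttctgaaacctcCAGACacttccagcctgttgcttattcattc
The stretch of Efemp1 holds 1 match and that of Loxl1 holds 2, beginning 165 and 31 bases before its start site. The full Efemp1 window holds 4. The G and C content of the 7 full windows was 60.4% to 71.2%, against a median of 51.2% over the table. A match is a run of letters and was not tested as a binding site.

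The change from day 4 to day 10 covers the days in which septa form fastest. In control lungs Eln rose 1.95-fold, and Ltbp2 and Efemp1 rose 1.4-fold each. In IUGR lungs Eln rose 1.46-fold, Fbn1 1.27-fold and Ltbp2 1.25-fold. Fbn2, Fbln5 and Efemp2 were not called in either diet. In controls 3 of the 8 genes were called higher, where 2.29% of all features were called higher, and in IUGR lungs 3 of the 8, where 6.83% of all features were called higher. The controls had 1123 called features in either direction (4.28%) and the IUGR lungs 3405 (13%). With 1 array left out these counts ran from 7 (without control day 4 replicate 1) to 2264 in controls and from 504 to 4259 in IUGR lungs, so the background shares move as widely. Without regard to the test, both day 10 arrays lay above both day 4 arrays for 5 of the 8 genes in controls, where 27% of all features did, and for the same 5 in IUGR lungs, where 23.9% did. They lay below for 0 in controls (30.9% of all features) and for 1, Efemp2, in IUGR lungs (30.4%).

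**Figure D1:**
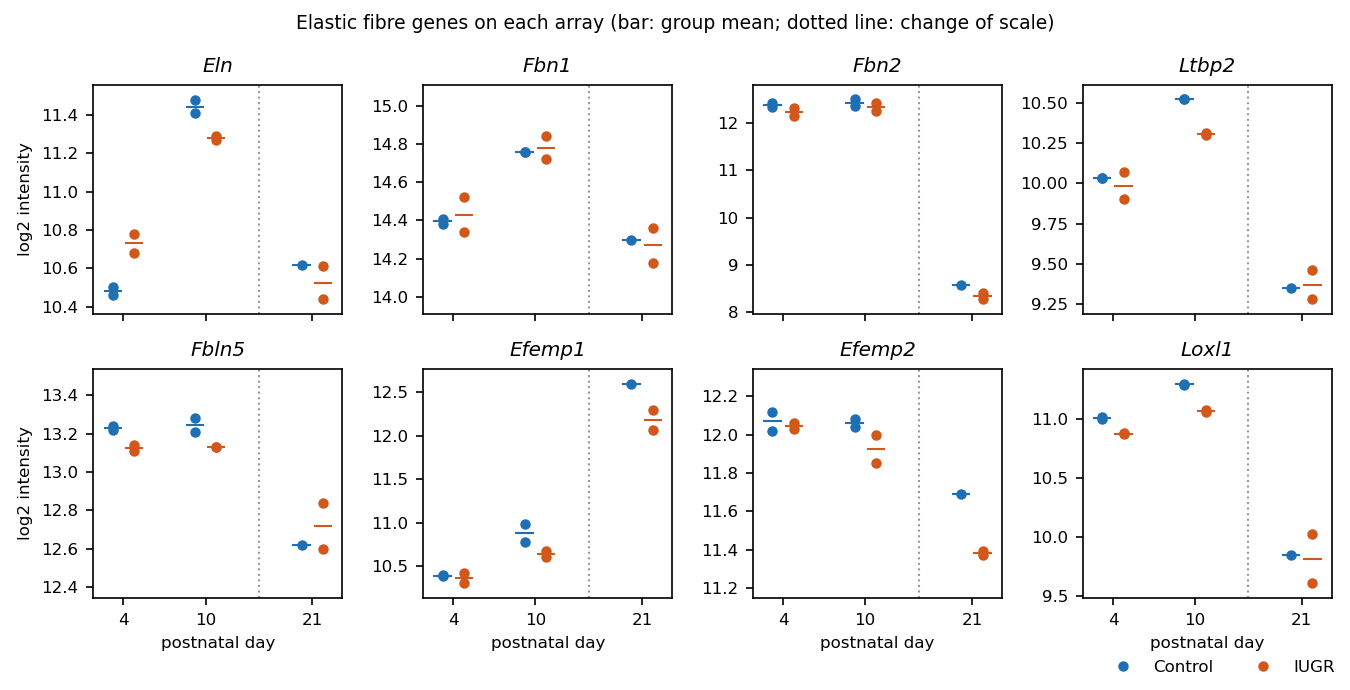
Log2 intensity (vertical axis, scaled separately for each gene) of the 8 elastic fibre genes on each array at days 4, 10 and 21; points are arrays (pools of 2 or 3 pups), bars are group means, and the dotted line marks the change of scale before day 21. Eln, Fbn1, Ltbp2, Efemp1 and Loxl1 lie higher on all 4 day 10 arrays than on all 4 day 4 arrays, whereas Fbn2, Fbln5 and Efemp2 overlap.

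Elastin itself had the largest change of the 8 genes in both diets. Eln, on chromosome 12 (27604983 to 27648413 in GRCr8), was 10.46 and 10.50 on the control arrays and 10.78 and 10.68 on the IUGR arrays at day 4. At day 10 it was 11.41 and 11.48 in controls and 11.29 and 11.27 in IUGR lungs. All 4 day 10 arrays lay above all 4 day 4 arrays, and within each day the diets did not overlap. The rise was 0.96 ± 0.08 in controls (adjusted p = 0.00424) and 0.545 ± 0.08 in IUGR lungs (adjusted p = 0.00849, limma, n = 2 and 2 in each). Of 26208 features, 112 (0.427%) had a larger rise than Eln in controls and 1292 (4.93%) in IUGR lungs. On the log2 scale the IUGR rise was 56.5% of the control rise, and the difference between the rises, -0.42 ± 0.11, was not called (adjusted p = 0.504, limma). From lowest to highest, the 4 group means of Eln were control day 4 (10.48 ± 0.03, SD, n = 2), IUGR day 4 (10.73 ± 0.07), IUGR day 10 (11.28 ± 0.02) and control day 10 (11.45 ± 0.05). Of the neighbours in that order, only IUGR day 4 and IUGR day 10 were called apart.

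The microfibril genes did not move alike. Fbn1, which encodes fibrillin-1, the main microfibril protein after birth, was 14.38 and 14.41 in controls and 14.34 and 14.52 in IUGR lungs at day 4, then 14.76 and 14.76 against 14.72 and 14.84 at day 10. Each day 10 array lay above each day 4 array, and the diets overlapped on both days. The difference between days was 0.35 ± 0.09 in IUGR lungs, where it was called (adjusted p = 0.0466), and 0.36 ± 0.09 in controls, where it was not (adjusted p = 0.0729, limma). Fbn2 encodes fibrillin-2, the fibrillin known mainly from fetal tissue. It was 12.35 and 12.42 in controls and 12.31 and 12.15 in IUGR lungs at day 4, then 12.36 and 12.50 against 12.43 and 12.26 at day 10. Its days overlapped, and its differences of 0.04 ± 0.10 in controls (adjusted p = 0.866) and 0.115 ± 0.10 in IUGR lungs (adjusted p = 0.493, limma) had intervals of -0.189 to 0.277 and -0.118 to 0.348. Ltbp2 encodes a latent TGF-beta binding protein relative that attaches to fibrillin microfibrils. It was 10.03 on both control arrays and 10.07 and 9.90 in IUGR lungs at day 4, then 10.52 on both control arrays against 10.31 and 10.30 at day 10. The days did not overlap in either diet, with a rise of 0.49 ± 0.09 in controls (adjusted p = 0.0257) and 0.32 ± 0.09 in IUGR lungs (adjusted p = 0.0457, limma).

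Among the fibulins, the one that rose was Efemp1, which encodes fibulin-3, an extracellular protein of elastic connective tissue. Efemp1 was 10.38 and 10.40 in controls and 10.30 and 10.42 in IUGR lungs at day 4, then 10.98 and 10.78 against 10.67 and 10.60 at day 10. The days did not overlap, and the change was called in controls (0.49 ± 0.10, adjusted p = 0.0344) but not in IUGR lungs (0.275 ± 0.10, adjusted p = 0.0976, limma). The difference between these changes was -0.22 ± 0.13 (adjusted p = 0.781, limma), so the diets were not shown to differ. Fbln5 encodes fibulin-5, which binds tropoelastin and Loxl1 and is needed for elastic fibres in mouse lung. It was among the steadiest of the 8 over these arrays, at 13.22 and 13.24 in controls and 13.14 and 13.11 in IUGR lungs at day 4, then 13.21 and 13.28 against 13.13 and 13.13 at day 10. All 8 values lay within a log2 range of 0.17. Its changes of 0.02 ± 0.08 and 0.01 ± 0.08 had adjusted p-values of 0.93 and 0.965 (limma). Efemp2 encodes fibulin-4, which is also needed for elastic fibres in the mouse. It was 12.02 and 12.12 in controls and 12.03 and 12.06 in IUGR lungs at day 4, then 12.04 and 12.08 against 11.85 and 12.00 at day 10. The control days overlapped, while the IUGR arrays of day 10 lay below those of day 4, with a difference of -0.125 ± 0.09 (adjusted p = 0.38, limma).

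Loxl1, the lysyl oxidase relative that prepares elastin for cross-linking, was 11.02 and 11 in controls and 10.87 and 10.88 in IUGR lungs at day 4, then 11.30 and 11.29 against 11.06 and 11.08 at day 10. The arrays of a group lay within about 0.02 of each other. The day 10 arrays were higher in both diets, by 0.285 ± 0.07 in controls (adjusted p = 0.075) and 0.195 ± 0.07 in IUGR lungs (adjusted p = 0.126), and neither was called by limma. Lox, the other main cross-linking enzyme, was not measured by a feature with a symbol.

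**Figure D2:**
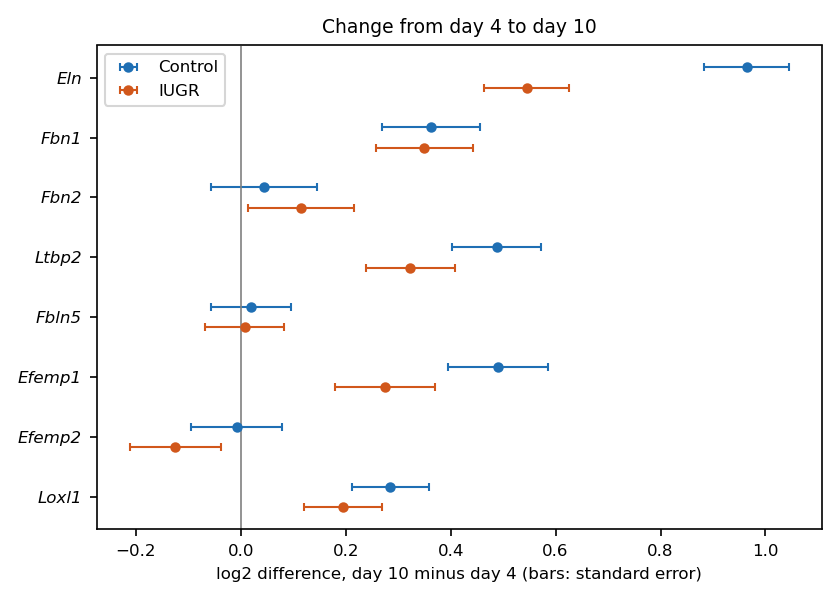
Log2 difference, day 10 minus day 4 (horizontal axis), for each gene in control (blue) and IUGR (orange) lungs, as limma estimates with standard errors from 2 arrays against 2. Eln stands farthest to the right in both diets, at 0.96 and 0.545, and Fbln5 lies at 0.02 and 0.01.

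Averaged over both diets, a comparison added after the values had been seen, 5 of the 8 genes were called higher at day 10, where 10.3% of all features were. They were Eln (0.75 ± 0.06, adjusted p = 0.000617), Ltbp2 (0.41 ± 0.06, adjusted p = 0.00425), Efemp1 (0.38 ± 0.07, adjusted p = 0.00779), Fbn1 (0.36 ± 0.07, adjusted p = 0.00919) and Loxl1 (0.24 ± 0.05, adjusted p = 0.017, limma, n = 4 and 4). For these 5 genes all 4 day 10 arrays lay above all 4 day 4 arrays, as they did for 11.2% of all features, and for 0 genes they lay below (13.1%). The median change of the 8 genes was 0.323 in controls, against -0.0124 over all features, and 0.235 in IUGR lungs, against -0.028.

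With 2 pools in a group, single arrays decided several of these calls. The call of Eln was lost without control day 4 replicate 1 (0.944, adjusted p = 0.06) or control day 10 replicate 2 (0.925, adjusted p = 0.0789), and in IUGR lungs without IUGR day 10 replicate 1 (0.534, adjusted p = 0.0589). In controls, Ltbp2 was not called without any 1 of the 4 control arrays (adjusted p = 0.112 to 0.183). Efemp1 was not called without any 1 of these or of the IUGR day 10 arrays (adjusted p = 0.0523 to 0.223). In IUGR lungs, Fbn1 was not called in 7 of 8 fits with 1 array left out, the exception being that without IUGR day 4 replicate 2 (adjusted p = 0.0764 to 0.162). Ltbp2 was likewise not called in 7 of 8, the exception being that without IUGR day 4 replicate 1 (adjusted p = 0.0758 to 0.17). Leaving out IUGR day 4 replicate 2 and IUGR day 10 replicate 2, the arrays with the high heart and fat markers, left 1 IUGR array at each day. Fbn1 in IUGR lungs was then 0.383 and Ltbp2 0.246. In controls, whose heart markers summed to 33313 and 26505 at day 4 and to 7808 and 7687 at day 10, the part of these markers in the members' changes was not tested.

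At day 4 none of the elastic fibre genes was called between IUGR and control lungs. Eln was higher by 0.25 ± 0.08 in IUGR lungs (1.19-fold, 95% interval 0.063 to 0.438, unadjusted p = 0.0154, adjusted p = 0.418, limma, n = 2 and 2), and both IUGR arrays lay above both control arrays. The other way, Fbn2 (-0.15 ± 0.10), Fbln5 (-0.11 ± 0.08) and Loxl1 (-0.13 ± 0.07) were lower on both IUGR arrays than on both controls, with adjusted p-values of 0.6 to 0.683 (limma). Groups did not overlap for 18.3% of all features in the higher and 19.1% in the lower direction, so 1 and 3 of the 8 genes are near the background. Fbn1, Ltbp2, Efemp1 and Efemp2 differed by at most 0.047 in size, and their groups overlapped. Of 26208 features 0 were called (0%), while 2514 (9.59%) had an unadjusted p below 0.05, Eln alone among the 8.

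At day 10 the members mostly lay lower in IUGR lungs, and again none was called. Both IUGR arrays were below both control arrays for 6 of the 8 genes, Eln, Ltbp2, Fbln5, Efemp1, Efemp2 and Loxl1, and above them for 0. Over all features that held for 23.6% and 19.9%. The smallest p-values were those of Loxl1 (-0.22 ± 0.07, unadjusted p = 0.0177, adjusted p = 0.523), Efemp1 (-0.245 ± 0.09, unadjusted p = 0.033, adjusted p = 0.578) and Ltbp2 (-0.21 ± 0.09, unadjusted p = 0.0372, adjusted p = 0.594, limma). Their folds, control over IUGR, were 1.17, 1.19 and 1.16. Eln was lower by 0.17 ± 0.08 on the log2 scale (95% interval -0.356 to 0.019, adjusted p = 0.658), which is the reverse of day 4. Fbn1 was 0.02 ± 0.09 and its groups overlapped. The median difference of the 8 genes was -0.153, against -0.0084 over all features. Of 26208 features 0 were called (0%), and 2095 (7.99%) had an unadjusted p below 0.05, with 3 of the 8 genes among them. In the same comparison all 5 heart markers (median 1.75) and all 4 brown fat markers (median 2.56) were higher in IUGR lungs. Of the 5 cartilage markers 3 were higher and 2 lower (median 0.0271), with Col2a1 at 1.61 ± 0.505. None of the heart, brown fat and cartilage markers was called. Of the 8 lung markers, 3 were higher and 5 lower in IUGR lungs (median -0.135). An unadjusted p below 0.05 (limma) was found for 4 of them, all lower, beside 7.99% of all features. They were Ager (-0.40 ± 0.09), Sftpb (-0.28 ± 0.10), Cldn18 (-0.27 ± 0.10) and Aqp5 (-0.27 ± 0.08). The part of these markers in the members' differences was not tested. Leaving out the pair of arrays highest in heart and fat markers left 1 IUGR array at day 10, and the members' median was then -0.182. The brown fat markers of that remaining array summed to 7593, against 1893 and 2940 in controls.

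**Figure D3:**
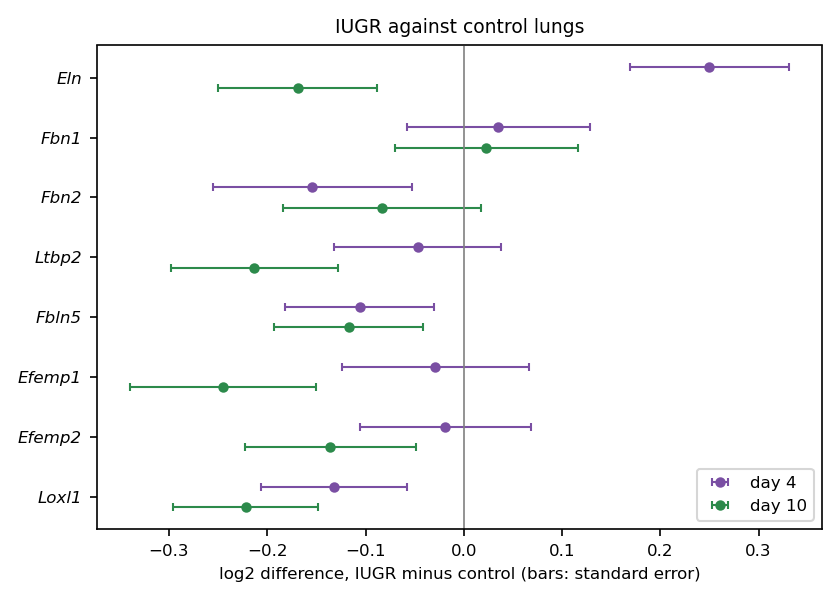
Log2 difference, IUGR minus control (horizontal axis), for each gene at day 4 (purple) and day 10 (green), as limma estimates with standard errors from 2 arrays against 2. Eln lies at 0.25 at day 4 and at -0.17 at day 10, and Loxl1 lies below 0 at both, while no gene passed the adjusted threshold.

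Over both days, Loxl1 had the smallest p-value of the 8 genes, with an average difference of -0.18 ± 0.05 (95% interval -0.298 to -0.055, unadjusted p = 0.0101, adjusted p = 0.408, limma, n = 4 and 4). It was lower on both IUGR arrays than on both control arrays at each day, as was Fbln5 (-0.11 ± 0.05, adjusted p = 0.527). That held for 5.16% of all features. Eln showed the other pattern, higher in IUGR lungs at day 4 and lower at day 10 without overlap, which held for 3.55% of all features. The difference between its effects was -0.42 ± 0.11 (95% interval -0.684 to -0.154, unadjusted p = 0.00671, adjusted p = 0.504, limma), and 1933 features (7.38%) had an unadjusted p below 0.05 there. This value is the smaller rise of Eln in IUGR lungs seen from the other side, since the same 8 arrays give both. Of 26208 features, 0 were called for the average (2689 or 10.3% at an unadjusted p below 0.05) and 0 for the difference. Without the pair of arrays with high heart and fat markers, which leaves 1 IUGR array at each day, the difference for Eln was -0.456. Over all its alternatives it ran from -0.467 to -0.37.

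Day 21 was compared with 2 IUGR arrays against 1 control array, so that only the IUGR arrays gave a spread. Eln was 10.61 and 10.44 in IUGR lungs and 10.62 in the control. Efemp1 was 12.07 and 12.30 against 12.60, and Efemp2 was 11.39 and 11.37 against 11.69. Fbn2 was 8.40 and 8.27 against 8.58. For these 4 genes both IUGR arrays lay below the control array, as they did for 31.3% of the 10097 features, and for none of the 8 did both lie above it (32.1%). Fbn1 (14.36 and 14.18 against 14.30), Ltbp2 (9.46 and 9.28 against 9.35), Fbln5 (12.84 and 12.60 against 12.62) and Loxl1 (10.03 and 9.61 against 9.85) had IUGR arrays on both sides of the control. The differences ran from -0.41 ± 0.24 for Efemp1 to 0.11 ± 0.24 for Fbln5, and each had an adjusted p of 1 (limma). With control replicate 2 rebuilt from 3 consecutive values per feature, the difference of Efemp2 was 0.157, which is the reverse in sign. The differences of Fbn1, Ltbp2 and Loxl1 were then reversed in sign as well. The 1 feature called (0.0099%) was Ucp1, the uncoupling protein of brown fat, and 551 (5.46%) had an unadjusted p below 0.05. On these arrays the brown fat markers summed to 1732 and 2267 in IUGR lungs and to 25820 in the control, and the heart markers to 8404 and 54141 against 31589. Their part in the members' values was not tested.

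The place of each gene within its own array can be set side by side across days, although age and processing cannot be told apart between day 21 and the earlier days. Percentiles among the 10097 features of an array were used, and they are compared within a gene, not between genes. Fbn2 stood at percentiles 88 to 91.3 on the 8 earlier arrays and at 48.3 to 50.9 on the 3 arrays of day 21, so that its lowest earlier value and its highest day 21 value were 37.1 points apart. Fbn2 was the 1 feature of the 10097 with a downward gap that wide. Fbn1, the other fibrillin, stayed between 98.8 and 99.6 at days 4 and 10 and between 98 and 98.4 at day 21. Efemp1 went the other way, from 67.2 to 76.7 up to 85.5 to 90.4 at day 21, a gap of 8.79 points that 107 features (1.06%) reached. Loxl1 stood at 74.6 to 80.2 and then at 62.1 to 65.1, a gap of 9.45 points that 98 features (0.971%) reached. Eln was at 69.4 to 73.3 at day 4, at 79.8 to 82.1 at day 10 and at 70.4 to 71.7 at day 21. Its day 21 arrays thus lay within the range of day 4, below those of day 10. Ltbp2, Efemp2 and Fbln5 had gaps of 3.35, 3.35 and 2.74 points downward.

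**Figure D4:**
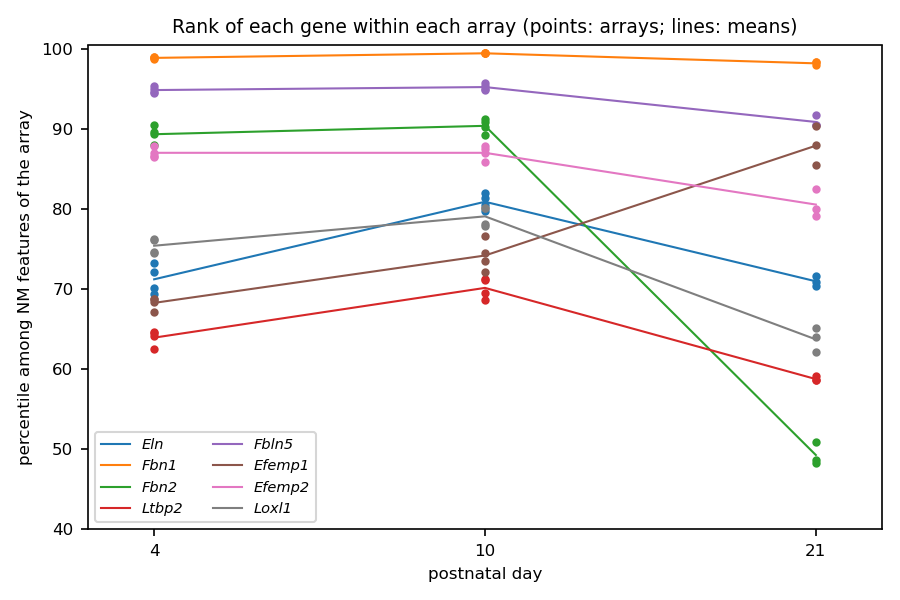
Percentile of each gene's feature among the 10097 NM features of the same array (vertical axis) at days 4, 10 and 21 (horizontal axis); points are arrays of both diets and lines join the means. Fbn2 drops from between 88 and 91.3 to about the middle of the array at day 21 (48.3 to 50.9), Efemp1 climbs to between 85.5 and 90.4, and Eln peaks at day 10.

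Because some day 21 rows were out of register, the rows around each member were checked. Over the 50 features on each side of a gene, the correlation between day 21 means and those of the earlier days was 0.934 to 0.957 as filed, and at no more than 0.357 when moved by 1 to 30 rows. In the control array that was left out, a value could be rebuilt for each member from 3 consecutive values. Which 3 were taken was set by the best correlation with the other day 21 arrays in windows of features, of at least 0.9. Some likeness to those arrays was therefore built in, and the rebuilt values are no independent check. The rebuilt value of Fbn2 stood at percentile 46.4, beside 41.4 to 44.2 on the other day 21 arrays over the same 7516 features. That of Efemp1 stood at 91, beside 83.4 to 88.8, and that of Loxl1 at 54.9, beside 56.8 to 60.3. The rebuilt values of the other members also lay outside the range of the other arrays. They were higher for Eln (71.9 beside 66.2 to 67.8) and Ltbp2 (57.7 beside 52.8 to 53.4), and lower for Efemp2 (69.5 beside 76.3 to 80), Fbn1 (96.6 beside 97.7 to 98.2) and Fbln5 (88.2 beside 88.9 to 90.4).

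Of 25 other elastic fibre genes listed, 10 were measured on the arrays of days 4 and 10. Of these, limma called 0 from day 4 to day 10 in either diet or between the diets. At an unadjusted p below 0.05 there were 0 between diets at day 4 (9.59% of all features) and 1 at day 10 (7.99%). From day 4 to day 10 there were 2 in controls and 1 in IUGR lungs, without a share of all features to set beside them. The one with the smallest p was Adamts17, a secreted protease of the microfibril-associated ADAMTS family, at 0.63 ± 0.165 in controls (adjusted p = 0.0766) and 0.54 ± 0.165 in IUGR lungs (adjusted p = 0.072, limma). Of 11 measured proteases that can cut elastin or microfibrils, the lysosomal cathepsin Ctss fell by 0.57 ± 0.10 in controls (adjusted p = 0.0254, limma). It was the 1 called of the 11, where 4.28% of all features were called in either direction. In IUGR lungs Ctss fell by 0.44 ± 0.10 (adjusted p = 0.0297) and Mmp12, the macrophage elastase, fell by 1.52 ± 0.23 (adjusted p = 0.00852, limma). These were 2 of the 11, where 13% of all features were called in either direction. Mmp12 was 10.56 and 9.83 on the IUGR arrays at day 4, against 8.55 to 8.93 on the other 6 arrays of days 4 and 10. Its excess over controls at day 4 was 1.38 ± 0.23 (adjusted p = 0.267) and it was not called. Of the 7 measured inhibitors of these proteases limma called 0 in any comparison. At most 2 had an unadjusted p below 0.05, in the change between days, again without a share of all features beside them.

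Signals known to act on elastin expression included the 3 TGF-beta ligands, which raise it. Tgfb1 was not called, at 0.08 ± 0.12 in controls (adjusted p = 0.766) and -0.08 ± 0.12 in IUGR lungs (adjusted p = 0.688, limma). Tgfb2 rose by 0.45 ± 0.09 in controls (adjusted p = 0.0329) and by 0.545 ± 0.09 in IUGR lungs (adjusted p = 0.0101), and Tgfb3 rose by 0.46 ± 0.08 (adjusted p = 0.0277) and 0.52 ± 0.08 (adjusted p = 0.0103, limma). Tgfb2 was 12.26 to 12.37 in controls and 12.13 to 12.22 in IUGR lungs at day 4, and 12.67 to 12.79 on the 4 day 10 arrays. Fgf18, a growth factor that raises elastin expression in rat lung fibroblasts, was 11.62 and 11.65 in controls and 11.43 and 11.17 in IUGR lungs at day 4. At day 10 it was 12.07 and 12.02 against 12.12 and 11.96. Its rise was called in IUGR lungs (0.74 ± 0.11, adjusted p = 0.00827) and not in controls (0.41 ± 0.11, adjusted p = 0.0819), and the difference between these rises was 0.34 ± 0.15 (adjusted p = 0.684, limma). Tgfb2 and Tgfb3 were the called ones among 14 measured signals in controls, where 2.29% of all features were called higher. With Fgf18 there were 3 in IUGR lungs, where 6.83% were. Between the diets limma called 0 of the 14 at any age. At day 4, 1 had an unadjusted p below 0.05, Fgf18 (-0.34 ± 0.11), as did 9.59% of all features. At day 10, 2 did, Smad3 (-0.28 ± 0.11) and Igf1r (-0.22 ± 0.09), as did 7.99% of all features.

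Genes of myofibroblasts and smooth muscle, cells that make elastin in the lung, had differences in both directions. The summed intensity of the 6 measured ones was 37728 to 42239 at day 4 and 39682 to 45882 at day 10. Pdgfrb, a receptor for platelet-derived growth factor on mesenchymal cells, was the 1 called gene of the 6. From day 4 to day 10 it rose by 0.56 ± 0.10 in controls (adjusted p = 0.0277) and by 0.48 ± 0.10 in IUGR lungs (adjusted p = 0.0231, limma). Of all features, 2.29% and 6.83% were called higher there. Acta2 changed by 0.02 ± 0.10 in controls (adjusted p = 0.936) and by 0.13 ± 0.10 in IUGR lungs (adjusted p = 0.433, limma). Between the diets at day 4, Acta2 differed by -0.13 ± 0.10 (adjusted p = 0.71, limma). In controls Actg2 and Des, which encode muscle proteins, differed between days by -0.43 ± 0.14 (adjusted p = 0.121) and -0.415 ± 0.16 (adjusted p = 0.193, limma). With Pdgfrb, 3 of the 6 had an unadjusted p below 0.05 there. The share of all features at that level is not given here, so this count has no background. Whether the members' changes follow the number of these cells was not tested.

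The genes with a pattern most like that of Eln were found by the root mean square distance between centred log2 values over the 8 arrays of days 4 and 10, among 5142 genes above the median level. The nearest 6 were Prelp, a leucine-rich matrix proteoglycan, Ceacam1, a cell adhesion molecule, Gnl1, a GTP-binding protein, the olfactory receptor Or51a7b, the secreted protein Metrnl and Plekhg5, at distances of 0.129 to 0.157. Prelp was 11.67 and 11.7 in controls and 11.86 and 11.7 in IUGR lungs at day 4, then 12.47 and 12.51 against 12.09 and 12.16 at day 10. Of the members, Ltbp2 was the nearest to Eln, at 0.206 with 50 genes nearer, followed by Efemp1 (0.229, 89 nearer), Fbn1 (0.238) and Loxl1 (0.294, 302 nearer). Fbn2, Fbln5 and Efemp2 lay at 0.37 to 0.425, with 990 to 2017 genes nearer. The arrays share 4 groups and 1 normalisation, so these distances describe the 8 arrays only.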

How the data were processed

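RNA of 12 pools was measured on NimbleGen arrays. The authors deposited 1 linear intensity per feature and array, made with RMA (version not stated), per the submitters' processing notes. Background settings, probe design and genome build are not given in the sources used here. Log2 of the deposited intensity was taken, not normalised again, and fitted in R 4.3.3 with limma 3.58.1 (eBayes), with p-values adjusted over all features. The 8 arrays of days 4 and 10 entered 1 fit of 26208 features (4 residual degrees of freedom, prior 3.79). Day 21 was fitted on 10097 NM features of 3 arrays (1 residual degree of freedom, prior 3.8). There, XM features were out of register by 28 rows, and control replicate 2 was left out because neighbouring values correlated at 0.593, like single probes that had not been summarised. The number of arrays limits the precision.

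Symbols came from RefSeq accessions matched to the GRCr8 table (9731 features with 1 symbol). The members and gene lists were chosen with earlier results of these data known. Named genes were all 8 members and, from each other list, those called (at most 6) or the 2 with the smallest p-value in a comparison, of which those bearing on elastic fibres are described. The fit was tested on simulated data.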

Additional observations from a re-analysis of the deposited data

Results flagged for a closer look

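The difference of Eln between IUGR and control lungs had opposite signs at days 4 and 10, with every IUGR array above the controls at day 4 and below them at day 10. Neither difference was called (adjusted p = 0.418 and 0.658, limma), and the 95% interval at day 10, -0.356 to 0.019, includes 0. The same pattern held for 3.55% of all features. The day 10 effect minus the day 4 effect was -0.419 on the log2 scale, and it did not pass adjustment over all features (adjusted p = 0.504, limma). At day 21 the difference for Eln was -0.096 ± 0.234 (SE, 95% interval -0.705 to 0.514), which gives no clear direction, with IUGR arrays at 10.61 and 10.44 and the 1 control array at 10.62. It is listed because both IUGR arrays lay below the control there and above the controls at day 4. These effects differed by -0.346, with day 21 on another scale, and this difference was not tested.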

How the results depend on the processing

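Between IUGR and control lungs, 0 members were called under every alternative run at each day, for the average and for the difference between effects. With 1 array left out, the features called ran from 0 to 644 at day 4, 0 to 2 at day 10, 0 to 166 for the average and 0 to 152 for the difference between effects. From day 4 to day 10 they ran from 7 to 2264 in controls (members called 0 to 4) and from 504 to 4259 in IUGR lungs (members called 0 to 2). The median member difference then ran from -0.067 to -0.034 at day 4, -0.182 to -0.125 at day 10, -0.123 to -0.087 for the average, -0.131 to -0.061 for the difference between effects, 0.204 to 0.244 for the change in IUGR lungs and -0.211 to 0.026 at day 21. Of 400 single member values with 1 array left out, 352 kept their direction and their side of the threshold. The 400 include fits without an array that does not enter the comparison. There the direction was fixed in advance, so 352 overstates how steady the values were.

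Without the pair of arrays high in heart and fat markers, features called were 60 at day 4, 29 for the average, 11 for the difference between effects and 2997 from day 4 to day 10 in controls, members called in IUGR lungs were 1, and the median member difference was -0.067 at day 4 and -0.182 at day 10. Fbn1 then changed sign in the diet comparisons (-0.057, -0.036, -0.046 and, for the difference, 0.021), as did Ltbp2 at day 4 (0.035) and Fbln5 from day 4 to day 10 in IUGR lungs (-0.006). That fit holds 1 IUGR array at each day. Same-numbered pools did not deviate together (correlation of -0.0677 at day 4 and 0.0619 at day 10). Replicate numbers as a block (replicate block) gave 404 called features and 1 called member, Eln, in controls, without Ltbp2 and Efemp1, and 2126 and 1, again Eln, in IUGR lungs, without Fbn1 and Ltbp2. It changed no count of calls between the diets. An intensity trend gave 1 called feature at day 4. Averaging both diets gave 5669 called features, 5 members and a median of 0.298. Quantile normalisation gave a median of 0.272 in IUGR lungs, and it and median centring turned Efemp2 in controls to 0.005 and 0.003. At day 21, features called were 0 with quantile normalisation, 0 with median centring, 0 with control replicate 2 rebuilt and 0 with it as filed, and 455 in 1 fit of 11 arrays. Rebuilt, it turned Fbn1 (0.163), Ltbp2 (-0.166), Efemp2 (0.157) and Loxl1 (0.14). As filed, it gave a median of 0.976 and turned Fbn1 (3.215), Ltbp2 (-1.25), Efemp1 (0.731), Efemp2 (1.67) and Loxl1 (1.222). The cause of these moves was not tested. With 1 array left out, values that changed sign ran from -0.057 to 0.127 for Fbn1, -0.13 to 0.035 for Ltbp2, -0.087 to 0.028 for Efemp1 and -0.068 to 0.03 for Efemp2 at day 4, from -0.036 to 0.082 for Fbn1 at day 10 and from -0.017 to 0.075 for Fbn1 in the average. For the difference between effects they ran from -0.104 to 0.08 for Fbn1, -0.011 to 0.153 for Fbn2 and -0.044 to 0.021 for Fbln5. From day 4 to day 10 they ran from -0.057 to 0.041 for Efemp2, -0.023 to 0.112 for Fbn2 and -0.014 to 0.051 for Fbln5 in controls, and from -0.006 to 0.02 for Fbln5 in IUGR lungs. Averaging several features of a gene was not run, because each member has 1 feature.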
